A study of Rattus norvegicus with 2 samples.

Results

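The 10 genes described here are a group of AP-1 and immediate early genes, chosen by name from the 17337 genes of an RNA-seq table of rat acetabular cartilage. They are the Fos family genes Fos and Fosb, the Jun family genes Jun and Junb, the related factor Atf3, the transcription factor gene Egr1, the nuclear protein gene Ier2, the mRNA decay genes Zfp36 and Btg2, and the phosphatase gene Dusp1. They were named with the results of these libraries in view, so their read numbers and ratios are given as a description and no test was made. All 10 had a row in the table, with no exon shared with another gene.

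The tissue came from the hip sockets of Wistar rats at 3 weeks of age. In DA-DDH rats, a dislocation (disarticulation) model of developmental dysplasia of the hip, newborns were swaddled for 10 days with hips adducted and extended and knees extended, and then moved freely. During swaddling, the paper states, each change of the tape came with some hours of release. Control rats were never restrained. RNA from both sockets of 5 DA-DDH rats was pooled into 1 library, and RNA of 4 control rats into the other, so each condition had 1 library, differences are without a replicate check and the spread between rats is unknown. The DA-DDH library held 833869 reads and the control library 796723.

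Immediate early genes are transcribed within minutes of a stimulus, such as a growth factor, mechanical strain or stress, without new protein synthesis, and their mRNAs are short-lived. Fos and Jun proteins pair through a leucine zipper into the AP-1 factor, which binds DNA and in cartilage is known as a regulator of matrix-degrading proteases and of chondrocyte maturation. Zfp36, Btg2 and Dusp1 belong to the brakes of the same response, since they shorten mRNA life or switch off the kinases that start it.

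Many immediate early promoters carry a cAMP response element (CRE), bound by CREB and ATF proteins, or a serum response element with a CArG box, bound by SRF. RefSeq promoters of the GRCr8 assembly were found by symbol for 7 of the 10 genes (Fosb, Junb, Egr1, Ier2, Btg2, Zfp36 and Dusp1). The 250 bases before the transcript start are shown for 5 of them, since these hold a full CRE or a CArG box, while their mRNAs differed widely in DA-DDH over control ratio. Capitals mark the CRE core on either strand, the CArG box and the EGR site.
Egr1, chr18:26736828-26737077, plus strand: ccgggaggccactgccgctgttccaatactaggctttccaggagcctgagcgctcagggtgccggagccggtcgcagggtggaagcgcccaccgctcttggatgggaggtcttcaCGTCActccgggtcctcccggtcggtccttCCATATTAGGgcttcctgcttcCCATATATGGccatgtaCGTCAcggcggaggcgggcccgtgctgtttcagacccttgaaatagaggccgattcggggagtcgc
Ier2, chr19:40399123-40399372, plus strand: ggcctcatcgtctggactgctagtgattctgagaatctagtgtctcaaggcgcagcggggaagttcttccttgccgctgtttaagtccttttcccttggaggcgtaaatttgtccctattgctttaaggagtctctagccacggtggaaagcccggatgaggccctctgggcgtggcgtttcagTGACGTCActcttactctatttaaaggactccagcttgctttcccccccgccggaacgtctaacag
Btg2, chr13:48087691-48087940, minus strand: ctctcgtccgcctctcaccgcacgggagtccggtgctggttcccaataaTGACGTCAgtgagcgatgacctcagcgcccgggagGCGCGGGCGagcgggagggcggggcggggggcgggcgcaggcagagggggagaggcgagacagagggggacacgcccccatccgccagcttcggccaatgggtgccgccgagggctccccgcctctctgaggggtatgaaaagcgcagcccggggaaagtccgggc
Zfp36, chr1:92799109-92799358, minus strand: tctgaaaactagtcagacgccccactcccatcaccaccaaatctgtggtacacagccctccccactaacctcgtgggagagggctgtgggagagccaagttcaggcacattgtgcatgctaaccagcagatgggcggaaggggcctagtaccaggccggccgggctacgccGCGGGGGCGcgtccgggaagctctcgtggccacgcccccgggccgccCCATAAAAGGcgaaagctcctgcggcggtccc
Dusp1, chr10:17184603-17184852, plus strand: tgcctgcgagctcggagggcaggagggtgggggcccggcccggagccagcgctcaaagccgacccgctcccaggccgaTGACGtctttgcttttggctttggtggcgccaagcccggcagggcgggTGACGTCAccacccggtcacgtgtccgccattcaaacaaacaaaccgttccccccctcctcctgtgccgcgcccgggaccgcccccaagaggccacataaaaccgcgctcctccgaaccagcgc

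The full CRE, TGACGTCA, was found in the promoters of Ier2, Btg2 and Dusp1, starting 66, 201 and 124 bases before the start. It is its own reverse complement and holds the core CGTCA once on each strand. Of all 33469 promoters of the same length, which also take in the first bases of the transcript, 1.83% held it on either strand, and 21.2% held the core. Egr1 had the core at 135 and 66 bases before the start and CArG boxes at 105 and 83, and Zfp36 had a CArG box at 32 bases. The CArG box was present in 1.64% of all promoters. The EGR site GCGNGGGCG, which occurred in 4.98% of promoters, lay in those of Btg2 and Zfp36, and Junb held the CRE core and the TATA box TATAAA (14.2% of promoters), which Fosb also held on the opposite strand. The AP-1 site TGANTCA, found in 7.33% of promoters, was not among the letters of these 7 windows. These matches describe reference sequence, and binding was not measured.

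As a group, these genes were lower in the DA-DDH library. They held 512 reads there, against 1167 in the control library, which is 0.0614% of DA-DDH reads (95% exact Clopper-Pearson interval 0.0562 to 0.0670) and 0.146% of control reads (0.138 to 0.155). Ratios below are log2 values of DA-DDH over control after TMM scaling, with 0.5 reads added to each, for genes whose larger read number was 30 or above. Their intervals are 95% exact conditional binomial intervals, and all intervals cover counting error only. At this floor 9 of the 10 genes were measured, all 9 of them below 0, with a median log2 ratio of -1.93, and 7 were more than 2-fold lower and 0 more than 2-fold higher. Among all 4375 genes at the floor, 3.06% were more than 2-fold lower, 4.71% more than 2-fold higher and 47.6% were below 0, and the median was 0.03 (quartiles -0.29 and 0.36). Because the genes were picked from this same contrast, nothing is read from the comparison with that background.

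**Figure D1:**
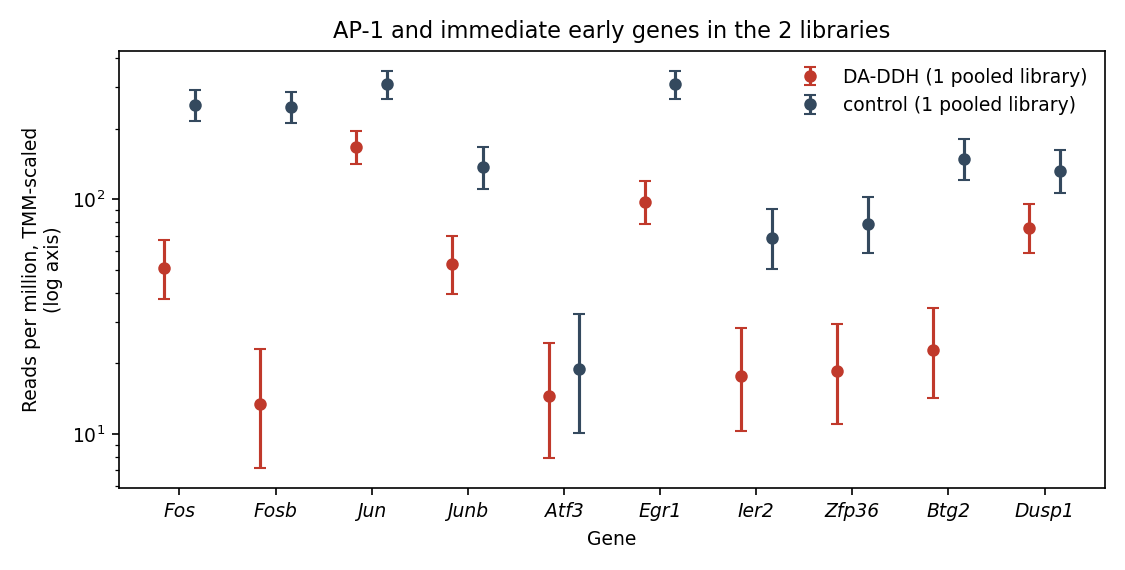
CPM (TMM-scaled, log axis) of the 10 genes in the DA-DDH library (red) and the control library (dark), with 95% exact Poisson intervals for counting error. Intervals of the 2 libraries are separate for Fosb, Fos, Btg2, Zfp36, Ier2, Egr1, Junb, Jun and Dusp1 and overlap for Atf3.

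The libraries also differed in markers of the cells they hold, and fewer cells of a type and less RNA per cell cannot be told apart in bulk tissue. Cartilage identity was clear in both, with Col2a1 alone at 11.4% of DA-DDH reads and 29.3% of control reads. All 13 chondrocyte markers with a row, of 15 listed, were lower in DA-DDH (120209 reads in DA-DDH and 275690 in control, median log2 ratio -1.42, from -1.79 to -0.47). Markers of other cells were higher, with summed reads of 2374 and 801 for skeletal muscle (10 of 11 above 0), 1117 and 364 for endothelium (9 of 9), 632 and 178 for macrophages (4 of 4) and 2411 and 1187 for fibroblasts (7 of 7), in DA-DDH and control in that order. Among the listed markers, Tcf21 of fibroblasts was at 0 in both. The part of these differences in the values of the early genes was not tested.

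Fosb, whose product is a Fos protein with a longer-lived spliced form, had 13 reads in the DA-DDH library and 169 in the control library. In rn6 its 4 exons, 3251 bases together, span bases 80214691 to 80221417 of chromosome 1 on the minus strand. In CPM (reads scaled to library size with TMM) this was 13.4 (exact Poisson interval 7.16 to 23.0) in DA-DDH and 245.9 (210.2 to 285.9) in control. The log2 ratio was therefore -4.14, 17.7-fold lower, with an interval of -5.13 to -3.38. This was the lowest ratio of all 4375 genes. The table counts reads per gene, so the spliced forms of Fosb are not told apart.

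Fos, the founding member of the family, lies on the plus strand of chromosome 6 from 109300433 to 109303299 of rn6. It had 49 reads in the DA-DDH library and 173 in the control library, that is 50.7 CPM (37.5 to 67.0) in DA-DDH and 251.7 (215.6 to 292.1) in control. The log2 ratio of -2.30 (interval -2.80 to -1.85), 4.93-fold lower, ranked 4 from the bottom of all genes at the floor. Fos and Fosb reads were nearly equal in control cartilage and far apart in DA-DDH cartilage. For each Fos read there were 0.265 Fosb reads in DA-DDH and 0.977 in control, a log2 odds ratio of -1.84 (exact conditional interval -2.94 to -0.91) that does not depend on how the libraries were scaled.

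The Fos-related genes Fosl1 and Fosl2, which encode Fra proteins, were below the floor and were looked up after the values of the others were seen. Fosl2 had 25 reads in DA-DDH and 16 in control. Fosl1 had 4 reads in DA-DDH and 0 in control, where a count of 0 allows up to 3 reads. Together they made up 31.9% (interval 22.5 to 42.5) of Fos family reads in DA-DDH and 4.47% (2.58 to 7.16) in control. Their own summed reads were 29 in DA-DDH and 16 in control. That is a log2 ratio of 0.35 with an interval that includes 0 (-0.56 to 1.35), so a rise of Fosl1 and Fosl2 is not shown.

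Jun, the main partner of Fos, is a single-exon gene at bases 114011186 to 114014277 of rn6 chromosome 5. It had 161 reads in the DA-DDH library and 212 in the control library, or 166.6 CPM in DA-DDH and 308.4 in control, a log2 ratio of -0.89 (interval -1.19 to -0.59) and short of 2-fold. Junb, a Jun protein that can restrain c-Jun, lies on chromosome 19 from 26092972 to 26094756 and had 51 reads in DA-DDH and 94 in control. Its log2 ratio was -1.37 (interval -1.90 to -0.87), 2.58-fold lower. Jund, the steadily expressed Jun gene that is not among the 10, had 170 reads in DA-DDH and 149 in control, at -0.30 with an interval from -0.63 to 0.03. Against Jund within the same library, the log2 odds ratio was -0.59 (-1.04 to -0.14) for Jun and -1.07 (-1.69 to -0.46) for Junb. Junb against Jun gave -0.48 with an interval that includes 0 (-1.09 to 0.11). Jun and Junb were picked with these results in view and Jund was not, so the odds ratios against Jund are a description only.

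The Fos family was lower by a larger factor than the Jun family. Fos family genes (Fos, Fosb, Fosl1 and Fosl2) held 91 reads in DA-DDH and 358 in control, and Jun family genes (Jun, Junb and Jund) held 382 in DA-DDH and 455 in control. The Fos share of the reads of both families was 19.2% (interval 15.8 to 23.1) in DA-DDH and 44.0% (40.6 to 47.5) in control, a log2 odds ratio of -1.72 (-2.13 to -1.33). Without Fosb, the log2 odds ratio was -1.02 (-1.47 to -0.58), and for Fos against Jun alone it was -1.41 (-2.00 to -0.86). Fos, Fosb, Jun and Junb were picked with these results in view, so these odds ratios are a description only. Per kilobase of exon, Fos made up 12.5% of the summed Fos and Jun family level in DA-DDH and 28.0% in control, and Fosb 1.62% in DA-DDH and 13.4% in control. Jund took 41.1% in DA-DDH and 22.8% in control, so that the largest share was that of Jund in DA-DDH and that of Fos in control. The control order of Fos and Jund (173 and 149 reads) was not checked against counting error.

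**Figure D2:**
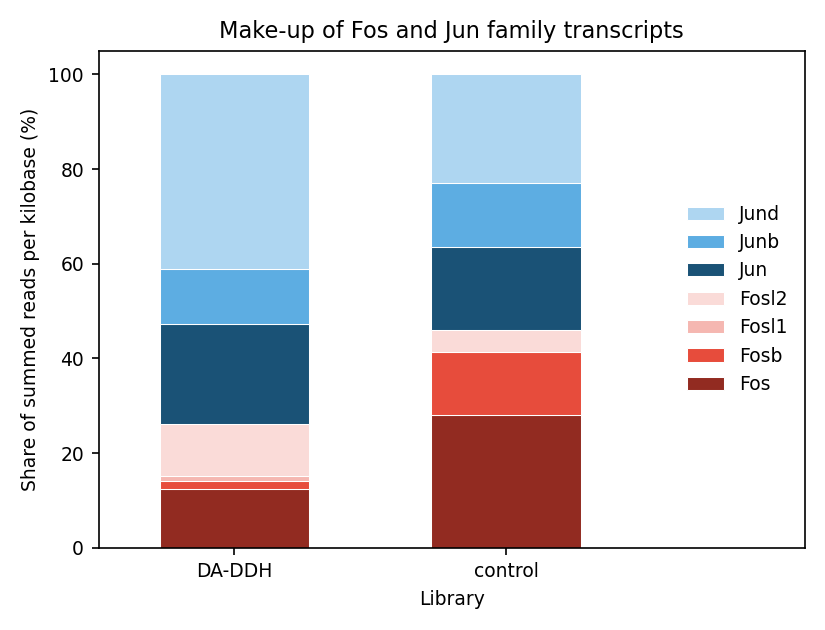
Share of each gene in the summed reads per kilobase of exon of the Fos family (red shades) and the Jun family (blue shades), for the DA-DDH library and the control library. The red part is smaller in DA-DDH, where Fos holds 12.5% against 28.0% in control, and Jund is the largest single part at 41.1%.

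Atf3, a stress-induced factor of the ATF group that pairs with Jun proteins, differed from the others in having few reads in either library. It had 14 reads in DA-DDH and 13 in control, below the floor, and a log2 ratio of -0.39 (interval -1.58 to 0.82) that leaves the direction undetermined at this depth, and with total-count scaling it was 0.04. Its gene spans chromosome 13 from 109817893 to 109849632 of rn6. Of 16 other bZIP partners in a list of ATF, BATF, MAF and related genes, 7 reached the floor, with 5 below 0, none more than 2-fold away and a median of -0.10. Atf4, which carries the integrated stress response, had 164 reads in DA-DDH and 149 in control (log2 ratio -0.35, interval -0.68 to -0.02). Atf2 was at 0.39, Atf1 and Atf5 were both at -0.36, Atf7 was at -0.10, Jdp2 at -0.05 and Cebpd at 0.08, each with an interval that includes 0.

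Egr1, a zinc finger transcription factor induced through serum response elements, had the highest level per kilobase of the 10 genes in both libraries. In DA-DDH it was not separated from Jun beyond counting error (log2 difference 0.24, interval -0.14 to 0.62). Egr1 lies on chromosome 18 from 27657903 to 27660101 of rn6. It had 94 reads in the DA-DDH library and 212 in the control library, or 97.2 CPM in DA-DDH and 308.4 in control. The log2 ratio was -1.66 (interval -2.03 to -1.31), 3.16-fold lower. Its paralogs were barely detected, with 5 and 8 reads for Egr2, 3 and 4 for Egr3, and 0 in both libraries for Egr4, in DA-DDH and control in that order. The NAB genes, whose products hold EGR proteins in check, lay on either side of 0. Nab1 was at 0.47 (63 reads in DA-DDH and 32 in control, interval -0.15 to 1.15), and Nab2 was lower, like Egr1, at -0.76 (38 in DA-DDH and 46 in control, interval -1.43 to -0.12). Egr1 against the summed reads of both NAB genes had a log2 odds ratio of -1.54 (-2.12 to -0.97). Since Egr1 was picked with these results in view, this odds ratio is a description only.

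Ier2, which encodes a small nuclear protein of the early response, had 17 reads in DA-DDH and 47 in control. It is a single-exon gene on chromosome 19 from 25774146 to 25775670 of rn6, and its log2 ratio was -1.93 (interval -2.85 to -1.13). The other IER genes were below the floor and were looked up afterwards. Ier5, for example, had 24 reads in DA-DDH and 10 in control, and the log2 odds ratio of Ier2 against Ier5 was -2.66 (-4.22 to -1.27). Summed over Ier3, Ier5 and Ier5l there were 50 reads in DA-DDH and 23 in control. This is a log2 ratio of 0.61 with an interval that includes 0 (-0.11 to 1.41). Ier2 was picked with these results in view, and Ier5 after its value was seen, so their odds ratio is a description only.

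Other early transcription factors did not share one direction. Of the early KLF genes, Klf2, a shear-stress factor of endothelium, was at -1.19 (38 reads in DA-DDH and 62 in control, interval -1.82 to -0.59). Klf9 was at -0.54, Klf4 at 0.10, Klf10 at 0.16 and Klf6 at 0.36, with intervals that include 0. The orphan nuclear receptor gene Nr4a1 had 34 reads in DA-DDH and 37 in control, at -0.61 (interval -1.33 to 0.10). Its relatives were below the floor and not lower. Nr4a2 had 29 reads in DA-DDH and 9 in control, at 1.14 (interval 0.08 to 2.46). Nr4a3 had 16 and 10, at 0.16 (interval -1.04 to 1.49).

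Zfp36 and Btg2 both shorten mRNA life, and both were lower. Zfp36 encodes tristetraprolin, which binds AU-rich elements of early and cytokine mRNAs and recruits the CCR4-NOT deadenylase. It lies on chromosome 1 from 85380088 to 85382565 of rn6 and had 18 reads in the DA-DDH library and 54 in the control library, a log2 ratio of -2.05 (interval -2.93 to -1.28). Btg2, an antiproliferative protein that binds the same deadenylase, lies on chromosome 13 from 50913185 to 50916944 and had 22 reads in DA-DDH and 102 in control. Its log2 ratio of -2.68 (interval -3.44 to -2.03), 6.41-fold lower, was the second lowest of all genes at the floor.

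The close relatives of these genes were not lower to that extent. Zfp36 and Btg2 were picked with these results in view, so higher values in relatives that were not picked can follow from that choice. The odds ratios against relatives are therefore a description, and whether the lower level is particular to Zfp36 and Btg2 was not tested. Zfp36l1, a tristetraprolin paralog, had 145 reads in DA-DDH and 73 in control, at 0.49 (interval 0.08 to 0.92), and the log2 odds ratio of Zfp36 against Zfp36l1 was -2.54 (-3.53 to -1.66). There were 0.124 Zfp36 reads for each Zfp36l1 read in DA-DDH and 0.740 in control. Btg1 had 60 reads in DA-DDH and 69 in control, at -0.69 (interval -1.22 to -0.17), and Btg2 against Btg1 gave -1.99 (-2.91 to -1.13). Tob1 was at 0.32 (39 and 22 reads in DA-DDH and control).

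The decay machinery itself lay close to the middle of all genes. In the list of CCR4-NOT subunits and AU-rich element binding genes, 14 reached the floor, 11 of them below 0 and 3 above, with a median of -0.18, and 13 of the 14 intervals included 0. The exception was Khsrp, a decay-promoting RNA-binding protein, at -1.12 (45 reads in DA-DDH and 70 in control). Cnot10 was at 0.68, Cnot2 at 0.60, Cnot6 at 0.56, Xrn1 at -0.42 and Rqcd1 at -0.36.

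Dusp1, the nuclear phosphatase that removes phosphate from MAP kinases, was among the least different of the genes. It lies on chromosome 10 from 16970642 to 16973425 of rn6 and had 73 reads in the DA-DDH library and 91 in the control library. Its log2 ratio was -0.81 (interval -1.27 to -0.35), short of 2-fold. The decay genes differed from it, since Zfp36 and Btg2 together had 0.548 reads for each Dusp1 read in DA-DDH and 1.71 in control, a log2 odds ratio of -1.63 (-2.36 to -0.94). Taken singly, the value was -1.24 (-2.24 to -0.33) for Zfp36 and -1.87 (-2.77 to -1.05) for Btg2. Zfp36, Btg2 and Dusp1 were picked with these results in view, so these odds ratios are a description only. Of 12 other dual specificity phosphatases, Dusp3 and Dusp7 reached the floor, at 0.20 and 0.09, and 3 had 0 reads in both libraries.

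**Figure D3:**
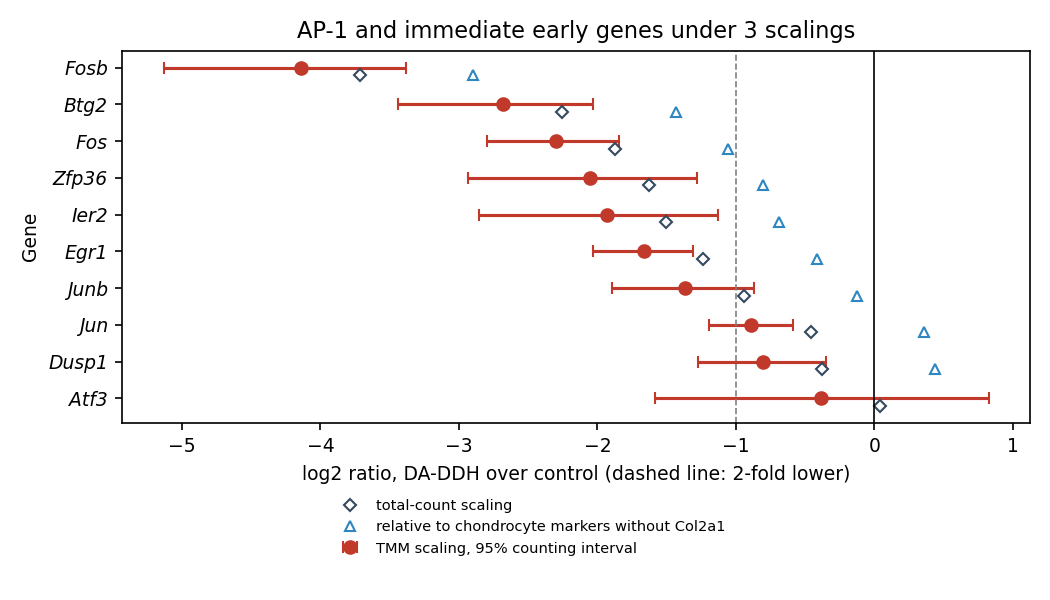
Log2 ratios of DA-DDH over control for the 10 genes, with TMM scaling and 95% counting intervals (red), with total-count scaling (diamonds) and relative to 12 chondrocyte marker genes without Col2a1 (triangles, not drawn for Atf3). The points run from -4.14 for Fosb to -0.39 for Atf3 with TMM scaling, and relative to chondrocyte markers Jun and Dusp1 lie above 0.

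Ordered by log2 ratio, the 9 genes at the floor ran from Fosb over Btg2, Fos, Zfp36, Ier2, Egr1, Junb and Jun to Dusp1. Fosb was apart from its neighbour Btg2, with a difference of -1.46 on the log2 scale (interval -2.66 to -0.36), and no other pair of neighbours in this order was separated beyond counting error. Over all 45 pairs of the 10 genes, 28 log2 odds ratios had an interval that excludes 0, unadjusted for the number of pairs. Fosb was separated from each of the other 9 and Junb from 3 of them. These intervals describe the values that chose the genes and are no test of a difference between conditions.

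The order of levels per kilobase also differed between the libraries. In DA-DDH it ran Egr1, Jun, Dusp1, Fos, Junb, Ier2, Zfp36, Btg2, Atf3 and Fosb, from 61.6 reads per kilobase for Egr1 to 4.00 for Fosb. In control it ran Egr1, Fos, Jun, Junb, Fosb, Dusp1, Btg2, Ier2, Zfp36 and Atf3, from 138.8 reads per kilobase for Egr1 to 6.88 for Atf3. Fosb was therefore at place 10 in DA-DDH and 5 in control. Neighbours separated beyond counting error were Jun and Dusp1 and Junb and Ier2 in DA-DDH, and in control Egr1 and Fos, Fos and Jun, Jun and Junb, and Zfp36 and Atf3.

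**Figure D4:**
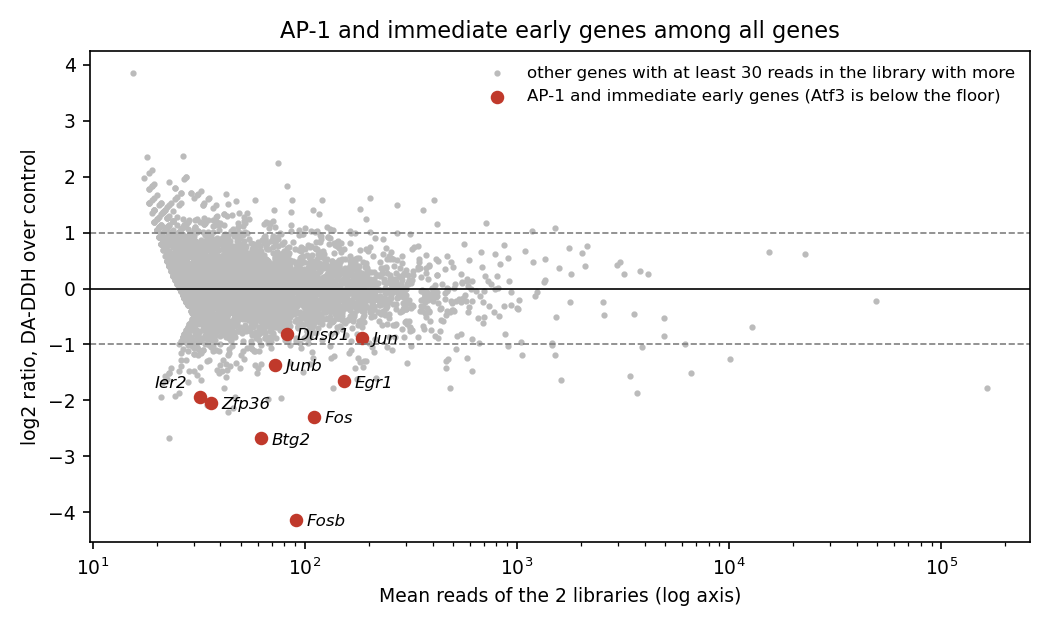
Log2 ratio of DA-DDH over control against the mean reads of both libraries (log axis) for the 4375 genes at the floor of 30 reads, with the 9 AP-1 and immediate early genes at that floor in red. Fosb is the lowest point, and the red points lie at -0.81 or below.

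In DA-DDH, 8 genes (0.183% of 4375) were over 4-fold lower, and 4 of them were Fosb, Btg2, Fos and Zfp36. Because the 10 genes were picked from this same contrast, nothing is read from their part in the 8. With total-count scaling 2 of the 10 genes were over 4-fold lower, Fosb and Btg2, with Fos at -1.88 and Zfp36 at -1.62. Relative to chondrocyte markers without Col2a1 it was 1, Fosb. The share of all genes over 4-fold lower is not given for either of these scalings. Of the 7 genes more than 2-fold lower, Fosb, Btg2, Fos and Egr1 had more than 100 reads in control. Of the 1313 genes with 100 reads or above in one library, 3.81% were over 2-fold lower and 2.82% over 2-fold higher. Over all genes at the floor of 30 reads, 134 were more than 2-fold lower and 206 more than 2-fold higher with TMM scaling, and with total-count scaling 47 were lower (1.07%) and 638 higher (14.6%). Total-count scaling moves every log2 ratio up by 0.43, which brings Junb to -0.94. List medians given here as slightly below 0 are then above 0. They are 0.32 for the bZIP, 0.25 for the decay machinery, 0.17 for the other early, 0.35 for the upstream kinase and 0.40 for the heat shock list. The shift is the same for every gene, so the place of these lists relative to all genes does not change.

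The wider early response was mixed in direction. In a list of other immediate early genes, 12 reached the floor, with 7 below 0 and 5 above, and a median of -0.25. The matricellular genes Cyr61 and Ctgf were at -1.25 (132 reads in DA-DDH and 223 in control) and -0.67 (337 and 382). In contrast, Arid5b and Plk2 were both at 0.82, and the kinase gene Sgk1 was at 0.66. The intervals of these 5 genes exclude 0. Below the floor, values looked up afterwards also ran both ways. Gadd45b had 2 reads in DA-DDH and 15 in control, and Gadd45a had 18 in DA-DDH and 3 in control. Taken over every family and early list without the 10 genes, 33 genes reached the floor, with 18 below 0, 15 above and a median of -0.10. Of these, 2 (Cyr61 and Klf2) were more than 2-fold lower. The 10 genes were picked with these values in view, so a remainder nearer the middle can follow from that choice. Whether the lower level is particular to the 10 genes was not tested.

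Kinases and factors that act upstream of immediate early genes had a median of -0.08 over 12 genes at the floor. Mapk9, which encodes JNK2, was at 1.01 (49 reads in DA-DDH and 17 in control, interval 0.21 to 1.92), and Rps6ka3 was at 0.71. Map2k1 and Mapkapk2 were both at -0.49, with intervals that include 0. Srf itself was below the floor, with 28 reads in DA-DDH and 8 in control, a value looked up afterwards. Protein and phosphorylation were not measured in these libraries.

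Known AP-1 target genes at the floor lay on both sides of 0, and whether their values follow those of Fos and Fosb was not tested. Of 9 listed, 5 reached the floor. Mmp9 (gelatinase B) was at -1.06 (77 reads in DA-DDH and 114 in control, interval -1.49 to -0.63) and Mmp13 (collagenase 3) at -0.16 (152 and 121, interval -0.52 to 0.19). Ccnd1, Timp1 and Cd44 were at 0.91, 0.90 and 0.89, each with an interval above 0. Below the floor, reads in DA-DDH and control were 11 and 7 for Mmp3, 22 and 11 for Plau, and 19 and 3 for Plaur. Il6 had 0 in both. The heat shock genes, another group that responds to stress, had a median of -0.03 over 9 genes at the floor, and the interval of each of the 9 included 0. Dnajb1 was at 0.84, Hsph1 at -0.31, Hspa1b at -0.13, Hsf1 at 0.12, Dnaja1 at -0.10 and Hspa8 at 0.07.

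**Figure D5:**
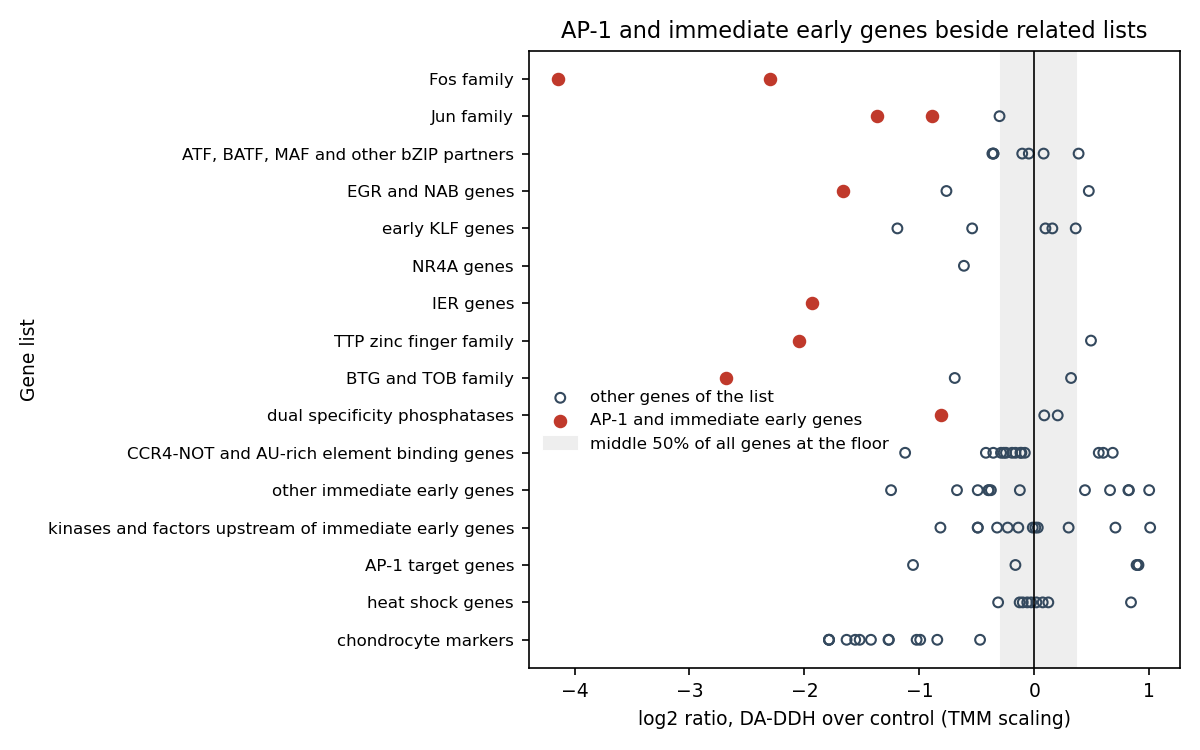
Log2 ratios of DA-DDH over control (TMM scaling) of genes at the floor of 30 reads, 1 row per gene list, with the AP-1 and immediate early genes in red and the other genes of each list as open circles. The grey band spans the quartiles of all genes (-0.29 to 0.36), and the chondrocyte markers lie between -1.79 and -0.47. In each row with red points the open circles lie to their right. The red genes were picked with these values in view, so that order can follow from the choice.

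Set against chondrocyte markers instead of all genes, the early genes divided. Relative to the summed reads of 12 chondrocyte markers without Col2a1, a scaling chosen after the data were seen, Fosb was at -2.90, Btg2 at -1.44, Fos at -1.06, Zfp36 at -0.81, Ier2 at -0.69, Egr1 at -0.42 and Junb at -0.12. Jun was then at 0.36 and Dusp1 at 0.44, on the other side of 0. No intervals were made for this scaling, so a turn of direction beyond counting error is not shown by it. Against the single gene Sox9, the transcription factor of chondrocyte identity (348 reads in DA-DDH and 595 in control), the log2 odds ratio was -2.88 (interval -3.89 to -2.08) for Fosb, -1.41 (-2.20 to -0.73) for Btg2 and -1.04 (-1.57 to -0.54) for Fos. It was 0.38 (0.01 to 0.74) for Jun. The intervals of Zfp36, Ier2, Egr1, Junb and Dusp1 against Sox9 included 0. The early genes were picked with these results in view, so their odds ratios against Sox9 are a description only.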

How the data were processed

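Acetabular cartilage RNA was sequenced as 1 pooled library per condition, 5 DA-DDH rats and 4 control rats. The authors aligned reads to rn6. TopHat and Cufflinks appear in the submitters' processing notes with no version, while the read counter and any use of strand are not given in the sources used here. The methods and the labels name different stranded library kits, one for mRNA and one for total RNA. The deposited signal per gene is a read count multiplied by the authors by 1 factor per library (1 read has a value of 0.855 in DA-DDH and 1.20 in control). All values (100%, relative tolerance 1e-06) were whole multiples, so reads were recovered by division. The authors' fold changes, p-values, q-values and ranks in that table were not used.

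Libraries were scaled by TMM (edgeR 4.0.16, R 4.3.3; factors 1.16 for DA-DDH and 0.863 for control). Log2 ratios carry a prior of 0.5 reads and apply to genes whose larger read number was 30 or above. Intervals are 95% exact and cover counting error only. The limit set for a count of 0 was 3 reads. The conditions, with 1 library each, were not tested against each other. Lengths are merged exon bases of the table. Promoters are RefSeq sequences of GRCr8. The calculations were tested on simulated data.

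The 10 genes and all gene lists were chosen with earlier results of these data known. Named are the 10 genes, every gene at the floor in the family lists, and up to 6 genes of each other list with the largest absolute log2 ratio, of which 3 are not reported here. Below-floor genes, Col2a1 and Sox9 were named after their values were seen. The alternatives were total-count scaling, total reads without Col2a1, upper-quartile and median-of-ratios scaling (DESeq2 1.42.0), the values as deposited, Gapdh, another prior and other floors. Further calculations used scipy 1.17.1, numpy 2.4.6 and pandas 2.3.3 in Python 3.11.15, with figures by matplotlib 3.10.9.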

Additional observations from a re-analysis of the deposited data

How the results depend on the processing

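With total-count scaling the median log2 ratio of the 9 genes at the floor was -1.51 and 6 of them were more than 2-fold lower, and over all genes 47 were more than 2-fold lower and 638 higher in DA-DDH. A floor of 10 reads gave 426 lower and 688 higher over all genes. The number of all genes at that floor is not given, so counts made there have no background share. A floor of 100 reads left 5 of the genes, with 4 more than 2-fold lower and a median of -2.30, and 50 lower and 37 higher over all genes, since fewer genes were counted. Relative to chondrocyte markers without Col2a1, added after the data were seen, 3 of the genes were more than 2-fold lower. The median of the 9 genes was then -0.69. The share over all genes is not given for that scaling, so the count of 3 has no background. The log2 odds ratio of the Fos against the Jun family was -1.02 without Fosb. Without division by exon length, 4 of the 10 genes kept their place in the order of levels in DA-DDH and 1 in control. With Gapdh, median-of-ratios or upper-quartile scaling, or total reads without Col2a1, 7 of the genes were more than 2-fold lower. The deposited values, a prior of 2 reads and a floor of 10 reads also gave 7. Apart from the floor of 10 reads, these settings gave from 94 (Gapdh) to 135 (median-of-ratios and deposited values) genes lower, of all 4375 genes at the floor of 30 reads. No paired analysis was possible because each condition has 1 library. Depth limits the values of Fosb, Atf3, Ier2, Zfp36 and Btg2 most, each with fewer than 30 reads in DA-DDH.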
